A study of Homo sapiens with 12 samples.

Results

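The 37 genes described here are a list of immediate early transcription factors and ERK feedback regulators named by symbol, out of 17818 NCBI genes in the deposited table. All 37 were found, and 36 reached 1 TPM (a level normalised for transcript length and library size) in at least 1 group. The receptor gene NR4A3 did not, at 0.443 to 0.627 TPM. The study holds 12 libraries of total RNA, 3 in each of 4 groups, namely SW480 with a control vector (genotype NC), SW480 overexpressing USP51 (USP51-OE), HCT116 with vector and HCT116 overexpressing USP51. USP51 is a deubiquitinating enzyme. The cells of all groups were grown in DMEM with 10% serum and are described as otherwise untreated, so every level below is one of cells in serum and not of cells starved and stimulated. The labels do not say how the construct was delivered, which promoter drove it, whether a group is 1 clone or a pool, or whether the 3 libraries came from separate cultures.

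Immediate early genes are transcribed within minutes of a growth factor, serum or stress signal, without new protein synthesis. ERK kinases phosphorylate ternary complex factors, which bind SRF at the promoters of such genes, and the products are mostly transcription factors (EGR, FOS, JUN, NR4A, KLF). A second set of ERK outputs feeds back on the pathway: DUSP phosphatases remove phosphate from ERK and related kinases, SPRY and SPRED proteins restrain signalling upstream of ERK, and the ETV4 and ETV5 factors carry the signal into later transcription. SW480 and HCT116 are human colorectal cancer cell lines.

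Each value is the authors' mean of a group, because the columns of single libraries carry codes that match no label and were not used. There is therefore no standard deviation, n or p-value, and no difference below was compared with the spread between replicates. In bulk RNA, fewer cells that express a gene and less of its RNA per cell cannot be told apart. The mean columns are named by line and the letter C or E, read here as control and USP51 overexpression. USP51 itself stood at 0.513 TPM in the C mean and 25.7 TPM in the E mean of SW480, and was listed at 0 and 40.8 TPM in HCT116. Mean totals were 15506686 to 15920306 estimated counts per group. Of 8 colorectal epithelial markers 7 reached 1 TPM in some group, with CDX1 at or near 0 throughout and VIL1 near 0 in HCT116. Of the markers looked for in fibroblasts, leukocytes and endothelium, COL1A1 and CD14 alone reached 1 TPM, and the summed levels were 1.5 to 15.4 TPM, 1.19 to 3.20 TPM and 0.230 to 0.383 TPM. COL1A1 was higher in HCT116 with USP51 (9.95 and 15.1 TPM). Its part in the results was not tested.

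Sequence before the start site is shown for 5 members, EGR1, EGR2, KLF2 and JUN as examples of the members whose ratios with USP51 differed between the lines, chosen after their values were seen, and FOS as a textbook gene of the class. RefSeq (GRCh38.p14) gave 37 windows for 28 of the 37 genes. DUSP4, DUSP5, EGR3, ETV4, ETV5, FOSL1, IER3, KLF10 and NR4A2 had none. Each run holds the 250 bases before a start site, 5′ to 3′ on the gene's strand. Capitals mark matches, on either strand, to the CArG box to which SRF binds, to TGACG (the core of the cyclic AMP response element), to TGANTCA (AP-1), to GCGNGGGCG (EGR) or to CCGGAAG (ETS).
EGR1, chr5:138465229-138465478, plus strand: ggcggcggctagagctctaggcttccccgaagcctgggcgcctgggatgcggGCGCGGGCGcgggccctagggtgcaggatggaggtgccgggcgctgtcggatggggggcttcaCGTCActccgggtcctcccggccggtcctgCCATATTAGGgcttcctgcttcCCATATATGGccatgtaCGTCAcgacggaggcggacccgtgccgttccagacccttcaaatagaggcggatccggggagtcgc
EGR2, chr10:62816367-62816616, minus strand, the third of 3 start sites: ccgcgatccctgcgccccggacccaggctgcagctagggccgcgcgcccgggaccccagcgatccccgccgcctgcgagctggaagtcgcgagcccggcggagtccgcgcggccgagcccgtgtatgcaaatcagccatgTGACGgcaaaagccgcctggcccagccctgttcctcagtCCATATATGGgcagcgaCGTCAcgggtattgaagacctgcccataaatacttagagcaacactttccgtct
KLF2, chr19:16324576-16324825, plus strand: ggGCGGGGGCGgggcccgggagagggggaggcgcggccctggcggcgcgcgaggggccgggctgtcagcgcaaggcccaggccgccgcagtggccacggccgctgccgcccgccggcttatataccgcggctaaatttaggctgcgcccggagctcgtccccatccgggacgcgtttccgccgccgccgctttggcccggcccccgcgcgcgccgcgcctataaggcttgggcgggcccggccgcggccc
JUN, chr1:58784048-58784297, minus strand: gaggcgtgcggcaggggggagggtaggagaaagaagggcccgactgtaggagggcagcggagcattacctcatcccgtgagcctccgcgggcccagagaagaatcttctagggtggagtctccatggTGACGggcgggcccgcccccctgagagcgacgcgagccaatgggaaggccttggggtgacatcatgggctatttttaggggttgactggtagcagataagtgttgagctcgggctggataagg
FOS, chr14:75278578-75278827, plus strand: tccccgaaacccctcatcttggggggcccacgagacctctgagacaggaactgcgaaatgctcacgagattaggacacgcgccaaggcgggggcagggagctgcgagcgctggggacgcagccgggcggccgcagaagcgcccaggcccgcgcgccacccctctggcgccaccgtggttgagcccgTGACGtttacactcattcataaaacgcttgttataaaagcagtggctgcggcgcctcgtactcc

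EGR1 had 2 CArG boxes, whose first bases lay 105 and 83 bases before the start, with TGACG matches at 135 and 66 bases and an EGR match at 198 bases. EGR2 had 1 CArG box at 71 bases between TGACG matches at 110 and 54 bases. KLF2 held an EGR match at 248 bases and no CArG box, and JUN and FOS each held a single TGACG, at 123 and 64 bases. Over all members, a CArG box was found in 3 of 37 windows (8.11%; in EGR1, EGR2 and SRF), against 1.16% of all 35116 windows in the table. TGACG was in 18 of the 37 (48.6%, all windows 21.2%), and the full palindrome TGACGTCA, which contains it, in 4 (10.8%, all windows 1.65%), those of DUSP1, JUND, MAFF and ZFP36L1. The EGR motif was in 8 (21.6%, all windows 8.41%), the ETS motif in 1 (2.7%, all windows 8.52%; IER2), and TGANTCA in 0 (all windows 6.57%). These are matches of letters in a short window and show no binding.

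The genes were abundant and compact. In HCT116 with vector the median of the 36 measured members was 58.5 TPM, at the median percentile 79.8 of the 12158 genes with at least 1 TPM, whose own median was 17.9 TPM. In SW480 with vector the median was 50.3 TPM against 17.8 TPM. The most abundant member in every group was IER3, a stress-responsive survival gene, at 889 and 943 TPM in SW480 (vector and USP51), with 929 and 1097 TPM in HCT116. Of the 36 measured members 25 span less than 10000 bases of the genome, with a median span of 6636 bases against 29283 bases over 13201 measured genes, of which 21.7% are that short. Chromosome 19 holds 6 members (FOSB, IER2, JUNB, JUND, KLF2 and ZFP36), a location only, as the share of all genes there was not counted.

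**Figure D1:**
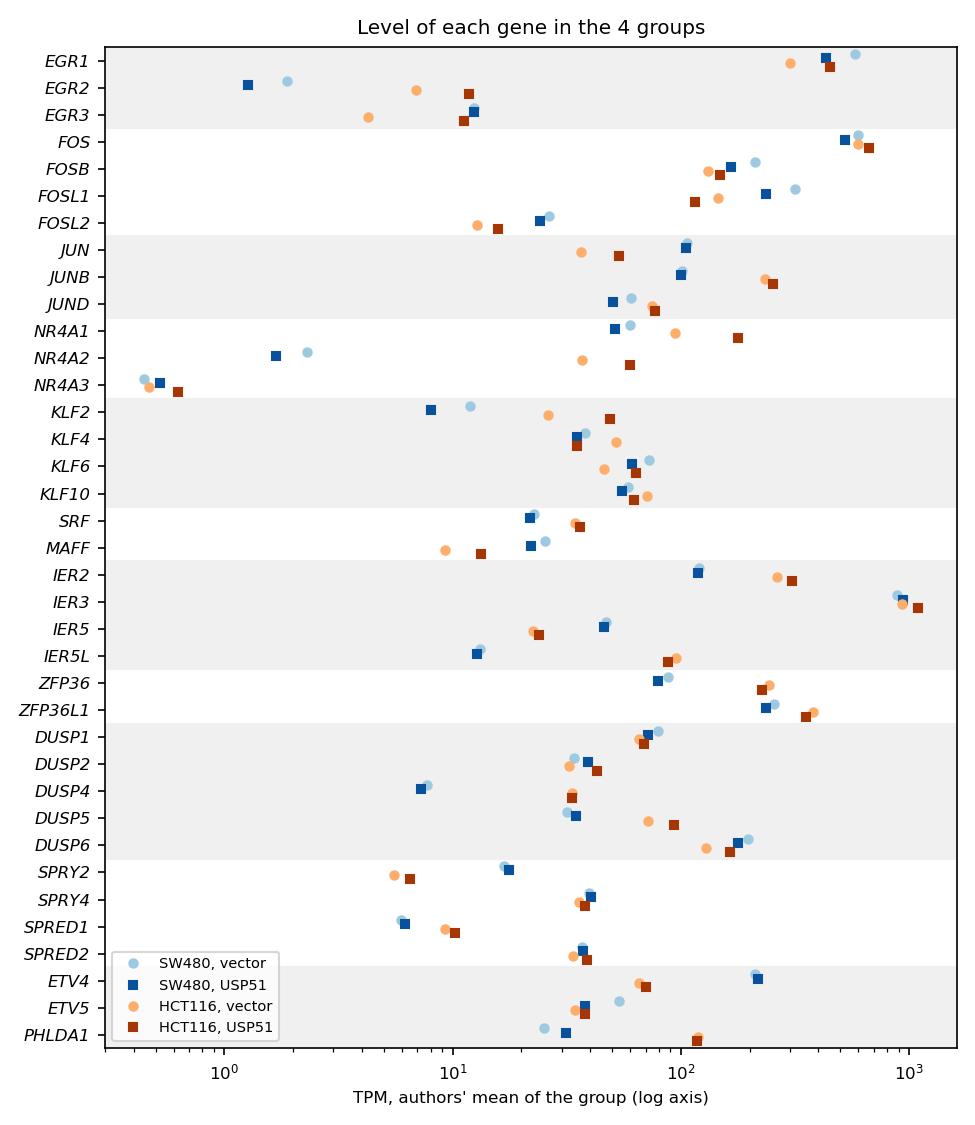
Level of each of the 37 genes in TPM (log axis), 1 point per group: circles are vector cells and squares USP51 cells, blue for SW480 and orange to brown for HCT116, with shaded bands separating the families. The levels run from 0.443 TPM for NR4A3 to 1097 TPM for IER3, and the lines stand furthest apart for NR4A2 and IER5L.

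On the TPM scale most members lay above control with USP51 in HCT116 and most lay below control in SW480. In HCT116, 28 of 36 lay above control, where 60.8% of all 12393 measured genes did. Of the 36, 12 were higher by at least 0.32 on the log2 scale (8.58% of all genes) and 2 at least 0.32 (log2) lower (1.11%). At 1.5-fold, the counts were 5 higher (1.96% of all genes) and 0 lower (0.145%). The 12 were DUSP2, DUSP5, DUSP6, EGR1, EGR2, EGR3, JUN, KLF2, KLF6, MAFF, NR4A1 and NR4A2, and the 2 were FOSL1 and KLF4. The fold is that of TPM + 1, which understates differences of low genes. EGR1, at 0.57 on the log2 scale, lay just under 1.5-fold. The median log2 ratio was 0.17 over the members and 0.04 over all genes.

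In SW480, 9 of 36 lay above control, where 38.8% of 12175 genes did. None was at least 0.32 (log2) higher (2.5% of all genes) and 6 were at least 0.32 (log2) lower (6.25%), namely EGR1, EGR2, ETV5, FOSB, FOSL1 and KLF2. FOSB, at -0.34, was at -0.29 to -0.31 in CPM and FPKM, and EGR2, also at -0.34, was at -0.27 in FPKM and -0.13 with a pseudocount of 5, so that neither kept to the limit there. Conversely, PHLDA1, at 0.31 in TPM, reached up to 0.38 in CPM or FPKM, past the limit. NR4A2, at -0.30 in TPM, was at -0.35 to -0.36 in CPM, also past it, and at -0.23 in FPKM. No member passed 1.5-fold, higher (0.534% of all genes) or lower (0.879%). The median was -0.10 over the members and -0.04 over all genes. This count of directions depends on the scaling: in counts scaled to the library total (CPM), with or without scaling factors, and in FPKM, 14 to 15 of 36 lay above control in SW480, beside 49.8% to 54.5% of all genes. In HCT116 the same scalings gave 26 to 28 members above control, beside 47.1% to 53.9% of all genes. Over these 6 scalings 21 members were always below control in SW480, 9 always above, and 6 (EGR3, IER2, IER5, IER5L, JUN and JUNB) changed sign. In HCT116, 26 were always above, 8 always below, and JUND and SRF changed sign.

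**Figure D2:**
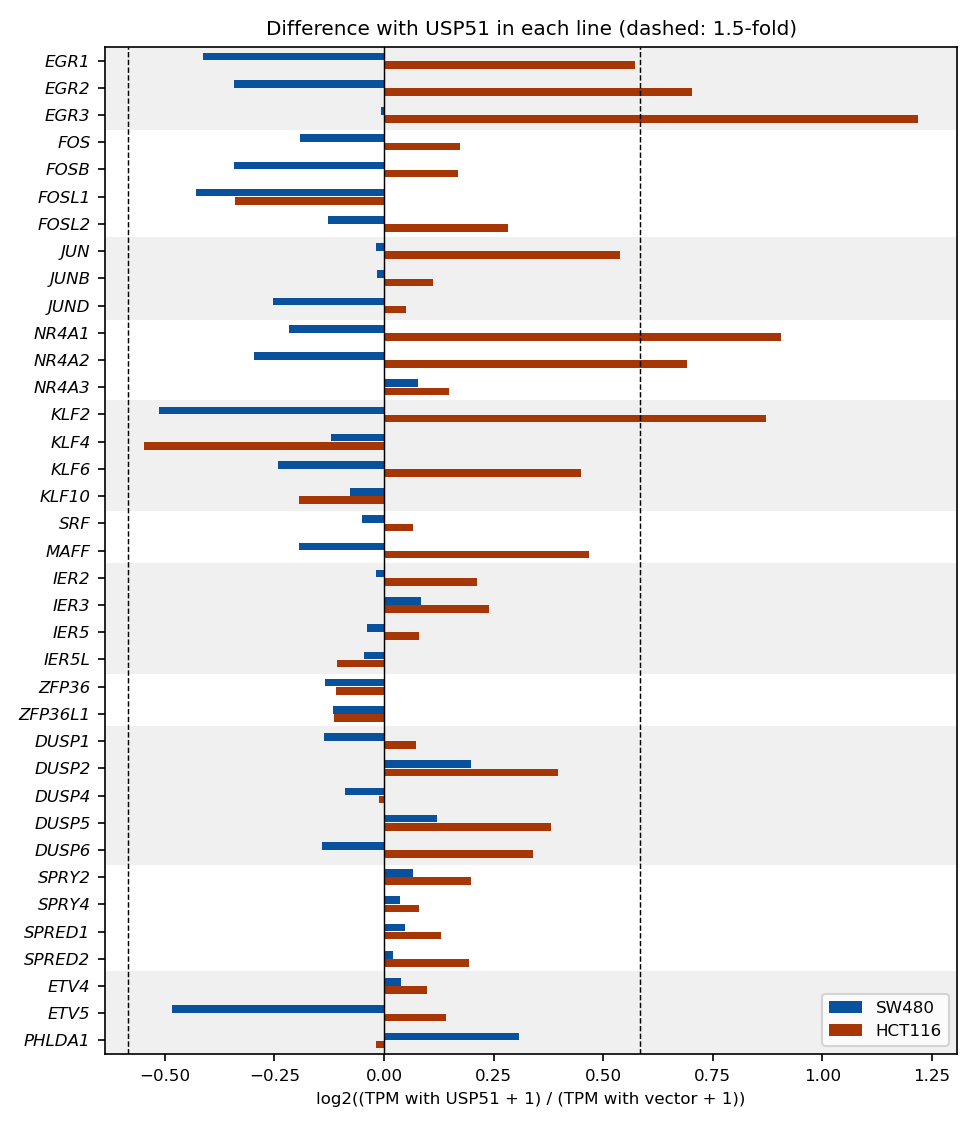
Difference with USP51 in each gene, as log2((TPM with USP51 + 1) / (TPM with vector + 1)), with blue bars for SW480, brown bars for HCT116 and dashed lines at 1.5-fold. EGR2, EGR3, KLF2, NR4A1 and NR4A2 pass the line in HCT116, and no bar passes it in SW480.

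**Figure D3:**
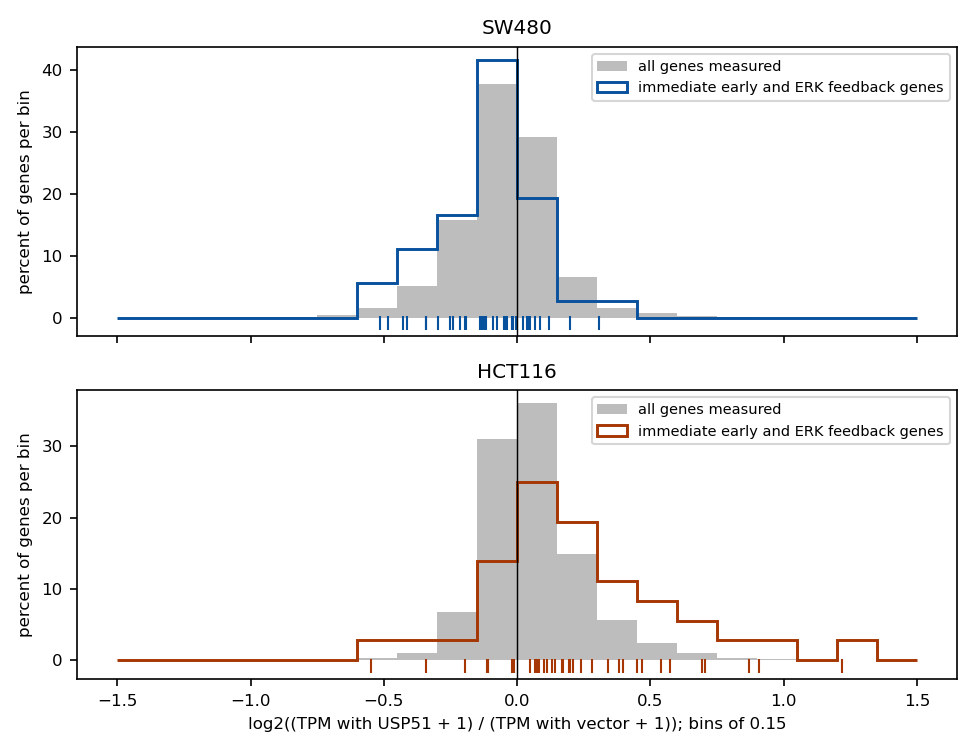
Distribution of the log2((TPM with USP51 + 1) / (TPM with vector + 1)) ratios in bins of 0.15, as percent of genes, for all measured genes (grey) and the 36 measured members (outline, with a tick per member below). In HCT116 the members reach further right than the bulk of genes, up to 1.22 for EGR3, and in SW480 they lie between -0.51 and 0.31.

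The EGR factors are zinc finger proteins that bind GC-rich sites and relay the ERK signal to target genes. EGR1 (NCBI gene 1958, chromosome 5, 138465479 to 138469303) was the main one, with 95.1% to 97.6% of the family's TPM in every group. In each pair of values below, vector cells come first and USP51 cells second. SW480 had 577 TPM with vector and 434 TPM with USP51, whereas HCT116 had 301 and 448 TPM. The count ratio, per total count and with its 95% exact interval for counting error only, (given in brackets after the levels from here on) was 0.773 (0.756 to 0.791) in SW480 and 1.46 (1.42 to 1.5) in HCT116. The vector cells of the lines were thus far apart and the USP51 cells close together, with a log2 gap between HCT116 and SW480 of -0.94 without and 0.05 with USP51.

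EGR3 (chromosome 8, 22687659 to 22693480) had the highest log2 ratio of the list in HCT116, 1.22. It was 1.10 with curated transcripts alone and 1.38 with a pseudocount of 0.1. With a pseudocount of 5 it was 0.81, below NR4A1 at 0.88. The level of EGR3 in HCT116 was 4.24 TPM with vector and 11.2 TPM with USP51, and the ratio of counts was 2.64 (2.20 to 3.18). In SW480 it was at 12.41 and 12.35 TPM, so that here too the lines were close together with USP51. EGR2 (chromosome 10, 62811996 to 62819167) was low in SW480, at 1.88 and 1.27 TPM on means of 52.7 and 37 counts, and its interval there included 1 (ratio 0.685, 0.438 to 1.06). In HCT116 it was at 6.88 and 11.8 TPM (1.69, 1.41 to 2.03).

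FOS and JUN proteins pair to form the AP-1 factors. The 4 FOS genes summed to 1151 TPM in SW480 with vector and 948 TPM with USP51, and to 885 and 949 TPM in HCT116. FOS (chromosome 14, 75278828 to 75282230) was the largest share in all groups. It was at 597 and 523 TPM in SW480 (ratio 0.902, 0.879 to 0.927), with 595 and 671 TPM in HCT116 (1.11, 1.08 to 1.13), less than 0.32 (log2) from control in each. FOSL1 (FRA1), a late and stable FOS protein linked to invasive growth, was lower in both lines. It stood at 317 and 235 TPM in SW480 (0.766, 0.733 to 0.801), with 146 and 115 TPM in HCT116 (0.769, 0.720 to 0.821). FOSL1 and KLF4 were the members at least 0.32 (log2) below control in HCT116, and FOSL1 was the member past that limit in the same direction in both lines. FOSL2 (FRA2) was at 26.6 and 24.2 TPM in SW480, with 12.8 and 15.8 TPM in HCT116.

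FOSB (chromosome 19, 45467996 to 45475179) was at 211 and 166 TPM in SW480 (0.807, 0.781 to 0.835), with 132 and 148 TPM in HCT116 (1.11, 1.07 to 1.15). Its reads were divided by the authors' estimation among 3 transcripts: the full-length one, a spliced one that encodes deltaFOSB, a shorter protein lacking the C-terminal activation region, and a predicted one. The full-length transcript was at 147.8 and 94.3 TPM in SW480, with 66.6 and 92.8 TPM in HCT116. The deltaFOSB transcript went the other way in each line, at 32.6 and 46.1 TPM in SW480, with 55.6 and 42.6 TPM in HCT116. As a share of the gene's TPM it was 15.5% and 27.7% in SW480 and 42.3% and 28.8% in HCT116. The predicted transcript was at 30.6 and 25.8 TPM in SW480 and 9.38 and 12.7 TPM in HCT116. The split is an estimate, and its spread between libraries is not known here.

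Among the JUN genes the lines differed in the balance of JUN and JUNB. JUN (chromosome 1, 58780791 to 58784047), the prototype AP-1 partner, was at 107 and 105 TPM in SW480, with 36.5 and 53.4 TPM in HCT116. JUNB was at 101 and 99.97 TPM in SW480, with 233 and 252 TPM in HCT116. The JUN to JUNB ratio of TPM was 1.05 in both SW480 groups, and 0.156 with vector and 0.212 with USP51 in HCT116. With USP51 the count ratio of JUN was 1.44 (1.33 to 1.55) in HCT116 and 1.02 (0.970 to 1.07) in SW480. JUND, usually the most constantly expressed of the 3, was at 60.2 and 50.4 TPM in SW480, with 74.7 and 77.3 TPM in HCT116. The table divides the counts of JUND equally between 2 transcripts.

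The NR4A genes encode orphan nuclear receptors that act without a known ligand. Like the EGR genes, NR4A1 and NR4A2 were higher with USP51 in HCT116. NR4A1 (NUR77; chromosome 12, 52022832 to 52059503) was at 94.6 and 178 TPM there (1.84, 1.74 to 1.93), and at 60.0 and 51.5 TPM in SW480 (0.891, 0.826 to 0.961). With curated transcripts alone its log2 ratio in HCT116 was 1.04 in place of 0.91. NR4A2 (NURR1) was at 36.7 and 59.9 TPM in HCT116 (1.59, 1.48 to 1.71) and at 2.30 and 1.68 TPM in SW480, on means of 74 and 55.3 counts (0.729, 0.505 to 1.05). Its log2 ratio in HCT116 was 0.69, and 0.32 with curated transcripts alone, which held 44.3% of its TPM in the vector cells. In SW480 it was -0.30, and -0.83 with curated transcripts alone.

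The KLF factors are zinc finger proteins; KLF2 and KLF4 are quiescence and differentiation factors, KLF6 is an injury-response factor and KLF10 a TGF-beta-inducible one. KLF2 (chromosome 19, 16324826 to 16328685) differed most between the lines of all members. It stood at 11.9 and 8.02 TPM in SW480 (0.694, 0.582 to 0.826), with 26.3 and 48.9 TPM in HCT116 (1.82, 1.66 to 2.0), log2 ratios of -0.51 and 0.87. KLF6 was at 72.5 and 61.2 TPM in SW480 (0.869, 0.827 to 0.914), with 46.3 and 63.5 TPM in HCT116 (1.35, 1.27 to 1.43).

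KLF4 (chromosome 9, 107484852 to 107489769) was lower with USP51 in HCT116, at 51.7 and 35.1 TPM (0.665, 0.612 to 0.722), with 38.0 and 34.9 TPM in SW480. It had the lowest log2 ratio of the list in HCT116, -0.55, and it was past 1.5-fold lower in CPM with RLE, TMM or upper-quartile factors. KLF10 was at 58.4 and 55.3 TPM in SW480, with 71.4 and 62.2 TPM in HCT116 (0.857, 0.802 to 0.915). Of the 4 KLF genes 2 thus lay above and 2 below control in HCT116, where 60.8% of all genes lay above. MAFF, a small MAF protein, was at 25.4 and 22.0 TPM in SW480 (0.903, 0.799 to 1.02), with 9.30 and 13.2 TPM in HCT116 (1.39, 1.16 to 1.67). SRF itself, the factor at the CArG box, was at 22.7 and 21.9 TPM in SW480, with 34.4 and 36.1 TPM in HCT116, with intervals of the ratio that included 1 in each line.

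The IER genes and the mRNA decay proteins ZFP36 (tristetraprolin) and ZFP36L1, which bind AU-rich elements and shorten the life of many immediate early transcripts, differed by less than 0.32 (log2) in each line. IER2 was at 120.3 and 119 TPM in SW480, with 264 and 306 TPM in HCT116 (1.14, 1.09 to 1.18). ZFP36 was at 87.5 and 79.6 TPM in SW480, with 244 and 226 TPM in HCT116 (0.909, 0.868 to 0.953). ZFP36L1 was at 255 and 235 TPM in SW480, with 381 and 352 TPM in HCT116. Both decay genes thus lay below control in each line, as did 23.2% of all genes. IER5 was at 47.2 and 45.9 TPM in SW480, with 22.4 and 23.8 TPM in HCT116. IER5L stood at 13.2 and 12.7 TPM in SW480, with 95.1 and 88.2 TPM in HCT116.

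Of the DUSP phosphatases, which act as negative feedback on ERK, JNK and p38, 3 of 5 were at least 0.32 (log2) higher in HCT116 (8.58% of all genes) and 0 in SW480 (2.5%). DUSP6, one of the 3 at 0.34, was at 0.29 to 0.31 in CPM and FPKM, under the limit. DUSP6 (chromosome 12, 89347235 to 89352501), an ERK-specific cytoplasmic phosphatase often read as a gauge of ERK activity, was at 129 and 164 TPM in HCT116 (1.24, 1.20 to 1.29) and at 196 and 178 TPM in SW480 (0.934, 0.903 to 0.967). DUSP5, its nuclear counterpart, was at 71.4 and 93.3 TPM in HCT116 (1.28, 1.20 to 1.37) and 31.7 and 34.6 TPM in SW480 (1.12, 1.01 to 1.24). DUSP2 was at 32.5 and 43.0 TPM in HCT116 (1.30, 1.15 to 1.46) and 34.2 and 39.3 TPM in SW480 (1.19, 1.05 to 1.34). DUSP2 and DUSP5 were therefore above control in both lines, unlike DUSP6. DUSP1, which is inducible and prefers p38 and JNK, was at 79.3 and 72.0 TPM in SW480, with 65.3 and 68.7 TPM in HCT116. DUSP4 was at 7.75 and 7.23 TPM in SW480, with 33.5 and 33.2 TPM in HCT116.

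The SPRY and SPRED inhibitors differed little. All 4 lay above control in both lines, by log2 ratios of 0.02 to 0.07 in SW480 and 0.08 to 0.20 in HCT116. Of all genes, 21.2% lay above control in both. SPRED1 was at 5.94 and 6.17 TPM in SW480, and on curated transcripts alone its log2 ratio there was -0.08. SPRY4, a sensitive ERK output in many cells, was at 39.5 and 40.5 TPM in SW480, with 35.8 and 37.9 TPM in HCT116, with intervals of 0.998 to 1.13 and 0.971 to 1.11. SPRED2 was at 36.8 and 37.3 TPM in SW480, with 33.8 and 38.8 TPM in HCT116 (1.14, 1.06 to 1.22).

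The ETV factors, ETS proteins induced by ERK and stabilised by loss of COP1, parted from each other in SW480. ETV5 (chromosome 3, 186046314 to 186109089) was at 53.5 and 38.0 TPM there (0.733, 0.686 to 0.782), and ETV4 at 212 and 218 TPM (1.05, 1.01 to 1.10). In HCT116 ETV5 was at 34.3 and 38.0 TPM (1.08, 1.01 to 1.17) and ETV4 at 65.5 and 70.2 TPM (1.05, 0.977 to 1.14). PHLDA1, a pleckstrin homology protein induced by ERK, was the member with the highest log2 ratio in SW480, 0.31, at 25.2 and 31.4 TPM (1.29, 1.20 to 1.38). It stood at 119 and 117 TPM in HCT116 (0.967, 0.935 to 1.0). It was the member above control in SW480 and below control in HCT116, as were 17.4% of all genes.

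The difference between the lines was described by subtracting the log2 ratio in SW480 from that in HCT116. It was above 0 for 32 of 36 members, where 65% of 11332 genes measured in both lines had such a difference. It was at least 0.5 for 11 members (6.12% of all genes): EGR1, EGR2, EGR3, ETV5, FOSB, JUN, KLF2, KLF6, MAFF, NR4A1 and NR4A2. In CPM and FPKM it was at least 0.5 for 9 (3.70% to 5.00% of all genes), without FOSB and JUN. No member had a difference of -0.5 or lower (0.821% of all genes), the lowest being KLF4 at -0.43 and PHLDA1 at -0.33. Below control in SW480 and above control in HCT116 were 20 members (38.1% of all genes), and 13 to 15 in CPM or FPKM, where the shares of all genes were 22.0% to 27.6%. The difference was not tested.

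**Figure D4:**
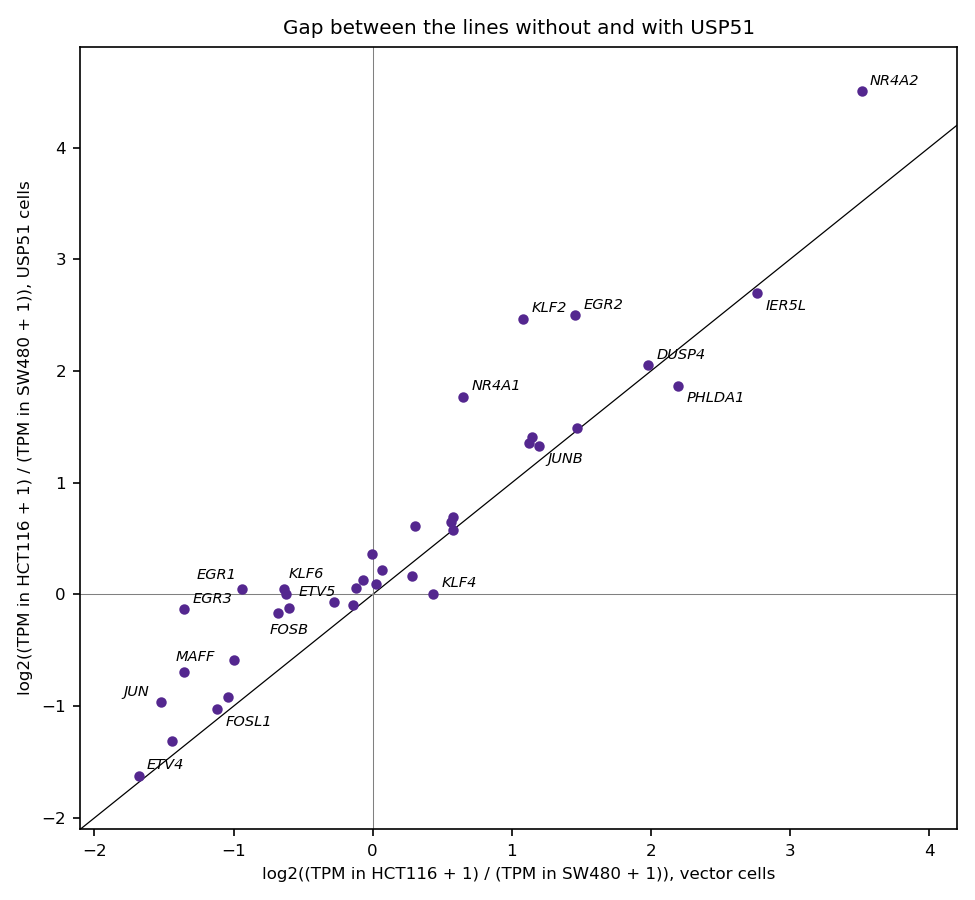
Gap between the lines, as log2((TPM in HCT116 + 1) / (TPM in SW480 + 1)), in vector cells (horizontal axis) and in USP51 cells (vertical axis), 1 point per gene, with the line of equal gaps. Points above that line have a higher log2 ratio with USP51 in HCT116 than in SW480; EGR1, ETV5 and KLF6 come to lie near a gap of 0, while KLF2, NR4A1, NR4A2 and EGR2 move further from 0.

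The vector cells of the lines were also compared with each other. Of 36 members, 10 were at least 2-fold higher in HCT116 than in SW480 (14.7% of 13033 genes) and 7 at least 2-fold lower (13.4%). The order below is that of log2(TPM + 1), and the bracketed count ratios need not follow it. Furthest up was NR4A2, at 36.7 against 2.30 TPM, a count ratio of 15.5 (12.2 to 19.9). IER5L followed at 95.1 against 13.2 TPM (7.17, 6.40 to 8.06), then PHLDA1 (4.69, 4.44 to 4.97), DUSP4 (4.29, 3.87 to 4.78) and ZFP36 (2.76, 2.60 to 2.94). EGR2, next on that scale, had a higher count ratio than ZFP36 (3.61, 2.66 to 5.0), at 6.88 against 1.88 TPM. Furthest down was ETV4, at 65.5 against 212 TPM (0.308, 0.289 to 0.328), and then JUN (0.340, 0.318 to 0.364), SPRY2 (0.324, 0.260 to 0.400), MAFF (0.368, 0.312 to 0.432) and EGR3 (0.330, 0.275 to 0.394). SPRY2 was at 16.8 and 17.6 TPM in SW480, with 5.54 and 6.51 TPM in HCT116. SPRY4 and SPRED2 were closer between the lines, with ratios of 0.900 (0.843 to 0.960) and 0.901 (0.838 to 0.969), and FOS had nearly the same level (597 and 595 TPM, ratio 0.991, 0.965 to 1.02). The lines are different tumours, and each is a single line, so that no feature of a line can be linked to these gaps.

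**Figure D5:**
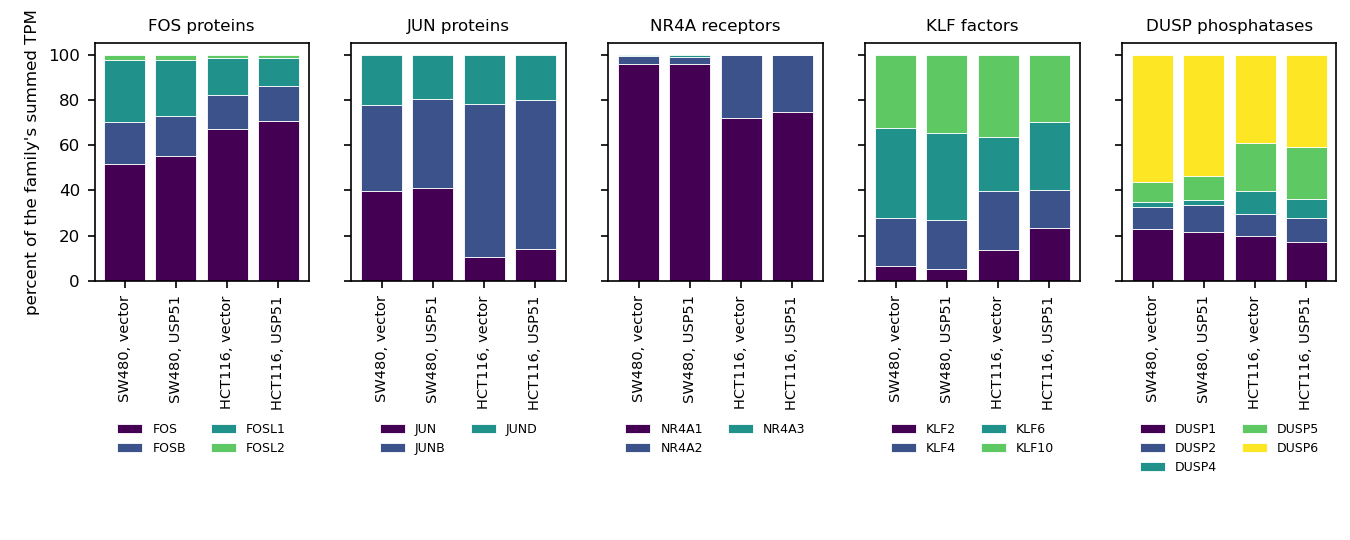
Composition of 5 families as percent of the family's summed TPM (bars add to 100) in the 4 groups. JUNB is 37.7% and 39.1% of the JUN genes in SW480 but 67.7% and 65.9% in HCT116, and KLF2 is 13.4% of the KLF genes in HCT116 with vector and 23.3% with USP51.

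Also read were 10 transcriptional regulators of the ELK, MRTF, CREB and ATF families, listed for a possible role at immediate early promoters. Of these, CREB1 alone passed 0.32 (log2) in either line. It was at 12.6 and 9.40 TPM in SW480, with a count ratio nearer 1 (0.850, 0.750 to 0.964). Of all genes in SW480, 6.25% were that much lower and 2.5% that much higher. In HCT116 1.11% were that much lower and 8.58% that much higher. On the TPM scale 2 of the 10 lay above control in SW480 (38.8% of all genes) and 7 in HCT116 (60.8%).

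Other immediate early and ERK output genes were read next. Of 27 in HCT116, 24 were above control, 10 of them by at least 0.32 (log2), and 0 were that much lower. Of all genes in HCT116, 60.8% were above control, 8.58% by that much, and 1.11% were that much lower. The median log2 ratio of the 27 was 0.26, beside 0.04 over all genes. Highest among the 10 by log2 ratio were CCN2 (3.01 and 7.66 TPM, 2.51, 1.87 to 3.41) and CCN1 (60.5 and 106 TPM, 1.72, 1.60 to 1.84). Also among the 10 were ATF3, a stress-induced partner of JUN (22.1 and 35.6 TPM, 1.58, 1.4 to 1.79), CSRNP1 (12.6 and 21.0 TPM, 1.62, 1.42 to 1.85) and the clock-linked repressor BHLHE40 (28.9 and 46.3 TPM, 1.57, 1.44 to 1.71). In SW480, 8 of 26 lay above control, where 38.8% of all genes did, and 3 were lower by at least 0.32 (log2), where 6.25% of all genes were. These were CSRNP1 (35.6 and 27.3 TPM, 0.782, 0.713 to 0.857), KLF9, and ETV1, the third factor of the ETV4 and ETV5 subfamily (5.47 and 3.21 TPM, 0.617, 0.504 to 0.755). ARC, the 1 gene of that list at least 0.32 (log2) higher in SW480 (2.5% of all genes), was at 3.10 and 4.13 TPM there and 10.4 and 15.4 TPM in HCT116. The cyclin gene CCND1, a later ERK output, was at 671 and 553 TPM in SW480 (0.850, 0.835 to 0.865), with 158.1 and 158.2 TPM in HCT116.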

How the data were processed

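RNA was taken with TRIzol and sequenced by BGISEQ chemistry, per the labels' protocols. The deposited table gives estimated counts, TPM and FPKM per RefSeq transcript (84345 rows), and the authors averaged each of these 3 units over the libraries of a group, per the file headers. The build hg38 and the tools TopHat and DESeq 1.32.0 are named, without a role, per the submitters' processing notes; which counter was used, and whether by strand, is not given in the sources used here. A further 36 columns, of single libraries, were not used, because no label matches their codes, so the planned edgeR tests were not run.

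Transcripts were summed per gene and matched to RefSeq symbols (GRCh38.p14). Log2((TPM with USP51 + 1) / (TPM with vector + 1)) was taken for genes that reached 1 TPM in a group compared. Count ratios per total count carry 95% Clopper-Pearson intervals (given the sum of both groups) from means rounded to whole counts. Each treats a mean as 1 library and covers counting error only. It is therefore wider than the counting error of a mean of 3 libraries. The interval code was tested on simulated single counts and not on means of libraries, so that test does not cover the width for a mean. Members, lists, motifs and limits (0.32 on the log2 scale, 1.5-fold, 2-fold, 0.5) were chosen with earlier results of these data known. Named in full are members past 0.32 (log2), the 5 furthest between lines or control groups in each direction, and EGR1, FOS, JUN, DUSP6, SPRY4, ETV4, ETV5 and PHLDA1; NR4A3 and others are named for completeness. Python 3.11.15, scipy 1.17.1 and edgeR 4.0.16 (scaling factors) were used. Alternatives were CPM (without factors, RLE, TMM, upper-quartile), FPKM, pseudocounts of 0.1 and 5, other filters, curated transcripts and other fold limits. Counts over the list of upstream signalling genes are not reported here.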

Additional observations from a re-analysis of the deposited data

How the results depend on the processing

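Leave-one-out fits, DESeq2 and the replicate block were not run, because group means alone were used. No paired analysis was possible because the group means carry no replicate numbers. The direction of no member past 0.32 (log2) reversed under any alternative run. FOSB in SW480 and DUSP6 in HCT116 fell short of that limit in CPM and FPKM, EGR2 in SW480 in FPKM and with a pseudocount of 5, and NR4A2 in HCT116 with curated transcripts. PHLDA1 in SW480, under the limit in TPM, passed it upward at up to 0.38 in CPM or FPKM. NR4A2 in SW480, also under it in TPM, passed it downward in CPM, with a pseudocount of 0.1 and with curated transcripts. The count of members above control in SW480, 9, was 14 in CPM without factors, with upper-quartile factors and in FPKM, and 15 with RLE or TMM factors. The count below control in SW480 and above control in HCT116, 20, was 13 with TMM factors. At 1.5-fold, SW480 had 1 lower member (NR4A2) with curated transcripts in place of 0, beside 1.41% of all genes. HCT116 had 1 lower member (KLF4) with RLE, TMM or upper-quartile factors in place of 0, beside 0.169% to 0.186% of all genes. At a limit of 0.32 (log2) the counts were 6 lower in SW480, and 12 higher and 2 lower in HCT116. At 1.5-fold between the vector cells 13 members were lower in HCT116 in place of 7, beside 22.6% of all genes in place of 13.4%. At that limit 11 members were higher in place of 10, beside 27.0% of all genes in place of 14.7%. Other counts stayed within 1.5 times the reported value, and each member median within 0.1 (log2). EGR2 and NR4A2 had low counts in SW480, and NR4A3 in all groups. The intervals of EGR2 and NR4A2 in SW480 included 1. Because each interval treats a mean of 3 libraries as 1 library, that inclusion cannot be put down to depth alone.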
